A study of Mus musculus with 24 samples.

Results

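The genes compared were 6 that mark the endothelium of veins, Nr2f2, Ackr1, Slc6a2, Car8, Vwf and Bst1. They were chosen by name for their known roles, not by a cut on measured values, but with earlier results of these data known. They are 6 of 20665 protein-coding genes on chromosomes 1 to 19. For each gene, every peak of 4 histone marks was taken that touched the gene body or the 20000 bp on either side, 218 peaks in all. The peaks came from lung endothelial cells, collected by FACS, of Dnmt3a knockout mice (KO) and wild-type mice (WT). Dnmt3a encodes a de novo DNA methyltransferase. There were 24 labelled samples, 3 in each of the 8 combinations of a mark with a genotype, and the labels used here name no allele, Cre driver, age or sex. One list of peaks was analysed for each group, with positions and widths but no height, so no value per sample, replicate error or sequencing depth stands behind any number here. Each comparison is between 2 lists, no test between genotypes was run, and intervals are exact Clopper-Pearson intervals at 95% that cover counting error only.

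The assay was ACT-seq, in which a transposase bound to an antibody cuts and tags DNA where the antibody sits. H3K4me1 marks enhancers and the flanks of promoters, H3K27ac marks active enhancers and promoters, H3K4me3 marks promoters, and H3K27me3 is written by the Polycomb system at silenced genes. Venous endothelium is set apart from arterial endothelium by the nuclear receptor encoded by Nr2f2, which restrains Notch signalling, the pathway that drives arterial fate. Veins and venules are also where leukocytes leave the blood, and several of their marker genes encode surface or secreted proteins of that process. In a sorted population that mixes several kinds of endothelium, a mark in fewer cells and a weaker mark per cell cannot be told apart.

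The sort was checked at the gene ends, within 1000 bp of either annotated end. Of 10 pan-endothelial genes, 9 had H3K27ac in both genotypes, and of 5 leukocyte genes none had H3K4me1, H3K27ac or H3K4me3 in either. Of 4 lymphatic endothelial genes, 3 (Prox1, Lyve1 and Flt4) had H3K27ac in both genotypes. Prox1 and Flt4 had H3K4me3 in both, and Lyve1 had it in WT only. Of 5 epithelial genes, Sftpc, a surfactant gene, had H3K27ac and H3K4me3 in both genotypes, and Epcam had H3K4me3 in KO only. Of 5 mural and fibroblast genes, Myh11 had H3K4me1 and H3K27ac in both genotypes. Acta2 and Myh11 had H3K4me3 in KO only, as did 13.0% of all genes with that mark at an end, and the part of other cells in the results below was not tested. The lists as a whole differed in length. H3K27ac had 81112 peaks in WT and 44484 in KO, H3K4me3 had 14984 and 22724, H3K27me3 had 20918 and 31022, and H3K4me1 had 49363 and 48458.

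RefSeq promoter sequences (GRCm38.p6, the assembly of mm10, from just before to just after the annotated start) matched 2 of the 6 genes. They are shown because neither was touched by a peak of any of the 8 lists, with the promoters of Nr2f1, the paralogue of Nr2f2, and Icam1, the leukocyte adhesion molecule, for contrast (for Nr2f1, 1 of its 2 promoters in the table). Each is written 5′ to 3′ on the gene's strand, and capitals mark CG, the dinucleotide that DNA methyltransferases act on.
Nr2f2, chr7:70366697-70366996, minus strand: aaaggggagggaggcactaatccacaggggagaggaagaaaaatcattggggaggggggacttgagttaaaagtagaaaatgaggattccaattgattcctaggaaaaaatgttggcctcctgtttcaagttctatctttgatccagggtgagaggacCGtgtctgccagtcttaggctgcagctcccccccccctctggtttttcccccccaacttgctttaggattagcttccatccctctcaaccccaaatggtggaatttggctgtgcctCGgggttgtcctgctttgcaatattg
Ackr1, chr1:173333454-173333753, minus strand: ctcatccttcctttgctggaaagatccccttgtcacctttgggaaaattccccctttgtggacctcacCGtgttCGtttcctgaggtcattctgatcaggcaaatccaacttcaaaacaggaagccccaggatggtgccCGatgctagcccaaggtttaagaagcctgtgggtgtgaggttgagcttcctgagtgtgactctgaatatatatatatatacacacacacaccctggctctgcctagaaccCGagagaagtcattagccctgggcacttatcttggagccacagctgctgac
Nr2f1, chr13:78198824-78199123, minus strand: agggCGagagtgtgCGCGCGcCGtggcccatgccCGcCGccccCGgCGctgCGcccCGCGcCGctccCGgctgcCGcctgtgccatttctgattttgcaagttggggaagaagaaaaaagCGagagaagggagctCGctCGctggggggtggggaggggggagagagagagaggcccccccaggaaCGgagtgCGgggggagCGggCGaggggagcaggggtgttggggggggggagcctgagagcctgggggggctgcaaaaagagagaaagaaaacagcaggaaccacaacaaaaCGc
Icam1, chr9:21015690-21015989, plus strand: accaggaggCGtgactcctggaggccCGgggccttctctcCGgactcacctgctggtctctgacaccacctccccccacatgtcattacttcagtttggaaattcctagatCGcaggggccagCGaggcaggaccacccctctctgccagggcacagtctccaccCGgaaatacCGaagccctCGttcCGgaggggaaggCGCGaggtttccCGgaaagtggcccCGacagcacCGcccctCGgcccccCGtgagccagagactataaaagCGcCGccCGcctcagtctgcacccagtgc

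The matched Nr2f2 promoter held 2 CG and that of Ackr1 held 4, below the median of 7 over 32851 promoters. The promoters of Nr2f1 and Icam1 held 23 and 19. Few CG and an absence of peaks did not go together throughout. Among other venous genes, the Emcn promoter, also with 2 CG, was touched by 6 lists, including H3K4me3 of both genotypes. That of Selp, with 4 CG, was touched by none. The nearest peak to the Nr2f2 window was H3K27me3 of KO, 624 bp away, and the nearest H3K4me3 peaks were 4533 bp away in WT and 4532 bp in KO. No other promoter of Nr2f2 was among those matched. Whether the H3K4me3 peaks inside the gene lie at another start was not tested. From the Ackr1 promoter the nearest H3K4me3 peak was 398460 bp away in WT and 265160 bp in KO. The Nr2f1 promoter was touched by H3K4me3 of both genotypes. The Icam1 promoter was touched by H3K27ac of both, by H3K4me1 of WT and by H3K4me3 and H3K27me3 of KO. Of 5 motifs searched on both strands, none of them contained in another, AGGTCA, a core site of nuclear receptors, was found 1 time at Ackr1 and not at Nr2f2, Nr2f1 or Icam1, and 16.3% of all promoters of the table held it. GGAAG, an ETS core, was found 2 times at Nr2f2, 3 times at Ackr1 and 1 time each at Nr2f1 and Icam1, against 71.4% of promoters that held it. CAGCTG, an E-box, was found 1 time at Ackr1 (16.3% of promoters), TATAAA 1 time at Icam1 (13.6%), and ACAATG, a SOX site, in none of the 4 (12.6%).

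The 6 genes fell into different chromatin states. Car8, Vwf and Bst1 carried series of H3K4me1 and H3K27ac peaks in both genotypes. Nr2f2 and Car8 carried all 4 marks in both genotypes, and Slc6a2 carried H3K27me3 near its lower-numbered end. Ackr1 carried almost nothing. Over the 6 genes together H3K4me1 was listed at 34 peaks in WT and 36 in KO, H3K27ac at 58 and 29, H3K4me3 at 5 and 12, and H3K27me3 at 16 and 28. The KO over WT ratios of peak number were 1.06, 0.500, 2.40 and 1.75, against 0.982, 0.548, 1.52 and 1.48 for the whole lists. With lists of equal number the H3K27ac ratio was 0.784 and the H3K27me3 ratio 1.13, and with peaks of at least 500 bp the H3K27ac ratio was 0.833. Without Nr2f2 the H3K27me3 ratio was 1.40 (14 over 10 peaks), below that of the whole list, and the H3K4me3 ratio was 4.00 (4 over 1). The marked length, the summed width of the peaks, was longer in KO at 4 of 5 genes with H3K4me1 (Nr2f2, Car8, Vwf and Bst1). It was longer in KO at 3 of 3 with H3K4me3 and 4 of 5 with H3K27me3. For H3K4me1 at Nr2f2 the order turned under 3 other settings. The KO length there included a peak of 947 bp at the window edge, whose WT partner of 199 bp lay outside. The H3K27me3 difference at Ackr1 and the H3K4me3 difference at Bst1 were 0 with 5000 bp on each side or with peaks of at least 500 bp, and that at Ackr1 also when peaks nearer to another gene were left out. Over all protein-coding windows with the mark, 56.9%, 83.5% and 79.2% were longer in KO. H3K27ac was longer in KO at 0 of 6 genes, against 21.5% of windows, but the order turned under other settings at Bst1 (4 settings), Car8 and Ackr1 (1 setting each).

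**Figure D1:**
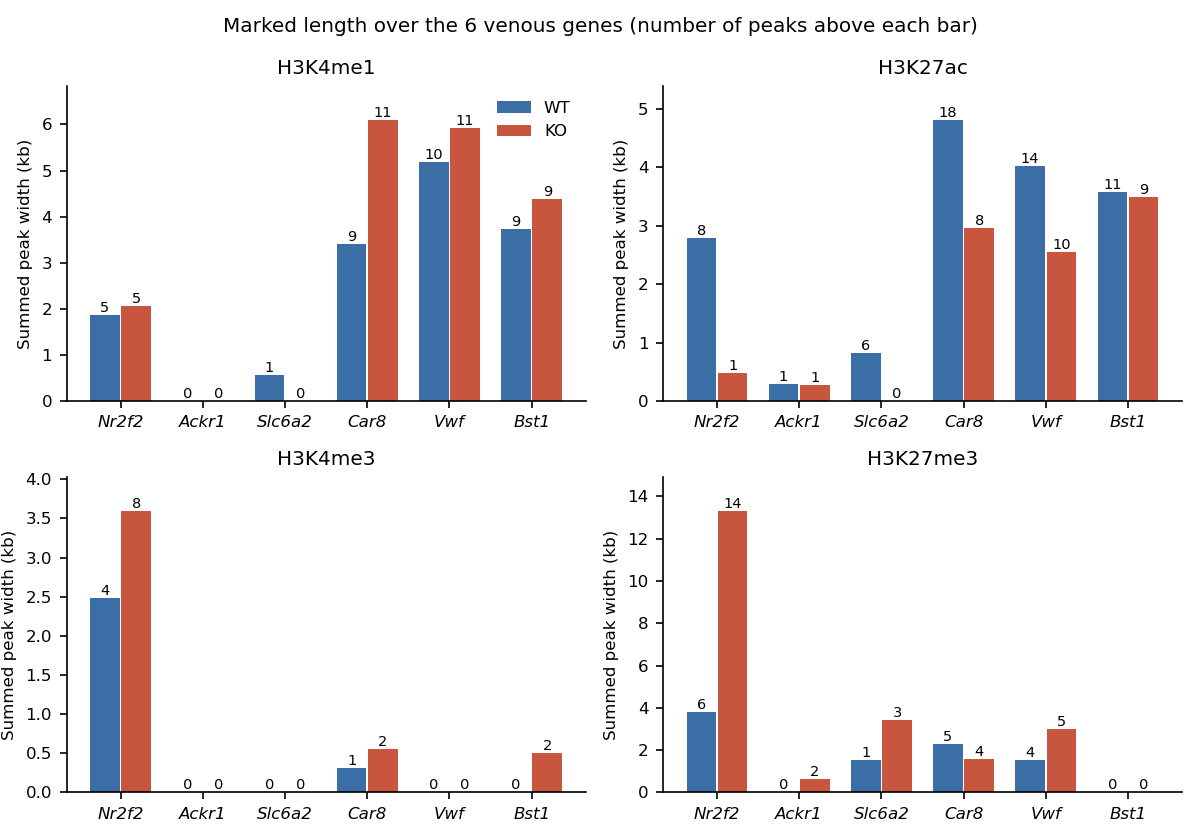
Summed width of peaks (kb) over each of the 6 genes and the 20000 bp on each side, for 4 marks, in WT (blue) and KO (red); the number above a bar is the number of peaks. Nr2f2 shows 14 H3K27me3 peaks in KO against 6 in WT and 1 H3K27ac peak in KO against 8 in WT, and Ackr1 has no H3K4me1 or H3K4me3 in either.

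Nr2f2, the venous transcription factor (chromosome 7, 70351946 to 70366746), held the most H3K4me3 and H3K27me3 of the 6 genes. H3K27ac was listed at 8 peaks in WT (2793 bp) and at 1 in KO (485 bp). The peak found in both lay inside the gene. It spanned 70361584 to 70362160 in WT (577 bp), and in KO it spanned 70361714 to 70362198 (485 bp). The 7 WT-only peaks were 119 to 496 bp wide. They included 1 from 70346075 to 70346570, outside the lower-numbered end, and 1 from 70368720 to 70369186, beyond the higher-numbered end. In the whole WT list, 63.0% of H3K27ac peaks had no KO partner, so a single WT-only peak is common. Of 2614 windows with at least 8 WT peaks, 1.61% had at most 1 in KO. That limit was set after the values of Nr2f2 were seen.

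H3K27me3 over Nr2f2 was listed at 6 peaks in WT (3826 bp) and 14 in KO (13299 bp), a ratio of marked length of 3.48. All 6 WT peaks had a KO partner, and in each pair the KO peak was the wider. The peak outside the lower-numbered end measured 521 bp in WT (70346011 to 70346531) and 2535 bp in KO (70345862 to 70348396). The peak beyond the higher-numbered end measured 1828 bp in WT (70368777 to 70370604) and 3208 bp in KO (70367620 to 70370827). Of the 14 KO peaks 8 were KO-only, against 51.4% of the whole KO list. The widest of these were 1241 bp (70337156 to 70338396) and 1112 bp (70339732 to 70340843), both outside the lower-numbered end, and the first lay within 1000 bp of an end of the noncoding gene Gm29683. Another noncoding gene, B130024G19Rik, has its lower-numbered end inside Nr2f2, and H3K27me3 peaks of both genotypes lay within 1000 bp of that end. Per 10000 bp of window the KO marked length was 2427 bp, higher than at 99.9% of protein-coding genes, and that of WT was 698 bp, higher than at 98.4%. Of 875 windows with at least 3000 bp in WT, 2.97% had at least 3 times that length in KO, a limit set after Nr2f2 was seen.

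The places with H3K27ac in WT only at Nr2f2 were mostly places with H3K27me3. Of its 7 WT-only H3K27ac peaks, 5 overlapped a H3K27me3 peak of KO, against 2.93% of all WT-only H3K27ac peaks. The share of the whole list is not matched for the H3K27me3 around Nr2f2. In KO its H3K27me3 marked length per 10000 bp of window was 2427 bp, against a median of 66.9 bp over all genes. H3K27ac and H3K27me3 peaks already overlapped in WT, at 4 of the 8 H3K27ac peaks, against 10.8% of the whole list. Lists from a mixed population do not tell whether overlapping peaks come from the same cells. Over the other 5 genes, 2 of 29 WT-only H3K27ac peaks overlapped H3K27me3 of KO, at Slc6a2 and Car8, and 7 of 50 WT H3K27ac peaks overlapped H3K27me3 of WT. Of the 8 KO-only H3K27me3 peaks at Nr2f2, 2 overlapped WT H3K27ac, against 14.8% of all KO-only H3K27me3 peaks.

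H3K4me3 over Nr2f2 was listed at 4 peaks in WT (2481 bp) and 8 in KO (3592 bp). The peaks of both genotypes lay at the lower-numbered end (916 bp in WT and 522 bp in KO) and at 2 places inside the gene, which in WT spanned 70358855 to 70359223 and 70361412 to 70362164. The last of these had the same first base in KO and a width of 754 bp against 753 bp, and it was the only place in the window that held all 4 marks in both genotypes. The 5 KO-only peaks, of a kind that made up 48.4% of the whole KO list, were 170 to 525 bp wide. The widest lay from 70346011 to 70346535, on H3K4me1 and H3K27me3 of both genotypes, where WT but not KO had H3K27ac. The 1 WT-only peak lay from 70331517 to 70331959, and such peaks made up 18.0% of the WT list. H3K4me1 had 5 peaks in each genotype, 1864 bp in WT and 2067 bp in KO. In WT 2 of them, at 70332047 to 70332209 and 70355979 to 70356311, had no KO partner, against 23.5% of the whole WT list. The KO length of H3K4me1 included a peak of 947 bp (70331009 to 70331955) that lay mostly outside the window, which starts at 70331946. Its WT partner of 199 bp lay outside the window and was not counted.

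**Figure D2:**
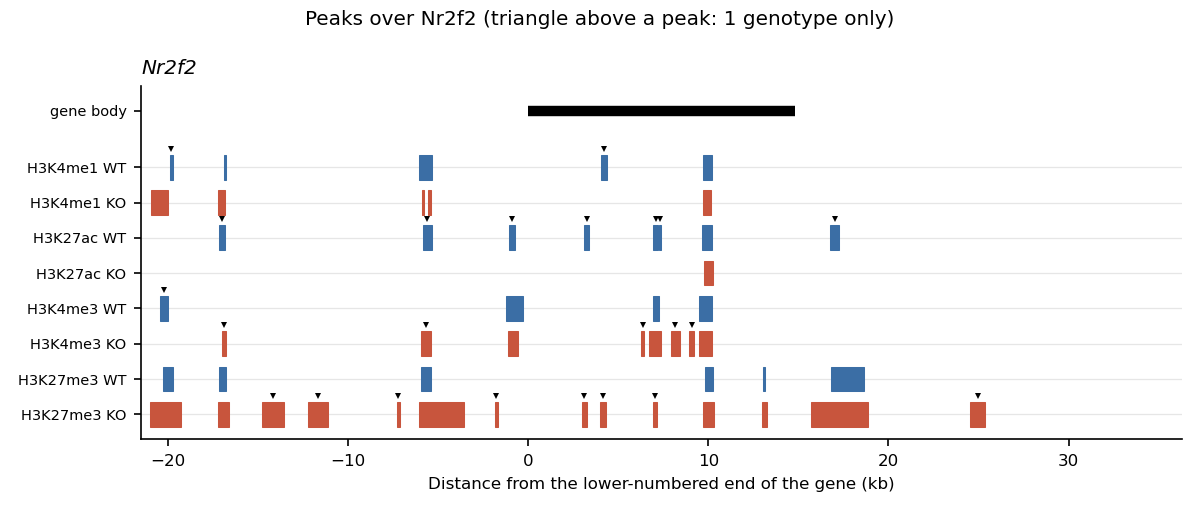
Map of the peaks over Nr2f2, with the distance from the lower-numbered end of the gene (kb) on the horizontal axis and 1 row for each list (WT blue, KO red). Bars are peaks drawn to scale, the narrowest at the width of a line, a triangle marks a peak of 1 genotype only, and the black bar is the gene. The H3K27ac row of KO holds 1 peak against 8 in WT, and the H3K27me3 row of KO holds 14 against 6.

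Vwf, whose product is stored in Weibel-Palade bodies and binds platelets (chromosome 6, 125552948 to 125686679), had H3K4me1 and H3K27ac at its lower-numbered end and inside the gene toward that end. H3K4me1 was listed at 10 peaks in WT (5195 bp) and 11 in KO (5922 bp), and only 1 KO peak, of 162 bp, had no partner, against 24.3% of the whole KO list. The widest was 1644 bp in WT, from 125558863 to 125560506, where KO had 2 peaks of 1176 and 448 bp. At the lower-numbered end H3K4me1 measured 619 bp in WT and 393 bp in KO, and H3K27ac measured 378 bp and 362 bp. H3K27ac over the gene was listed at 14 peaks in WT (4015 bp) and 10 in KO (2549 bp), with 7 in each list shared. The widest WT-only peak measured 530 bp (125597661 to 125598190) and lay on H3K4me1 of both genotypes. The widest KO-only peak measured 310 bp (125594821 to 125595130), and KO-only peaks made up 32.5% of the KO list.

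No H3K4me3 peak was listed over Vwf in either genotype. Of 3218 windows with at least 5 H3K4me1 peaks in each genotype, 1.12% had no H3K4me3 peak at all, a limit set after Vwf was seen. A H3K27me3 peak lay on the lower-numbered end, 323 bp in WT and 401 bp in KO, on the H3K4me1 and H3K27ac peaks there. A wider H3K27me3 stretch beyond the higher-numbered end, 1707 bp in KO (125689946 to 125691652) and 2 peaks of 639 and 228 bp in WT, lay at an end of the neighbouring gene Ano2. The KO-only peak of 299 bp (125547158 to 125547456) lay within 1000 bp of an end of the noncoding gene Gm33144.

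Bst1 encodes CD157, a cell surface enzyme of nucleotide metabolism (chromosome 5, 43818880 to 43843468), and had no unshared H3K4me1 peak. All 9 H3K4me1 peaks of WT (3737 bp) and all 9 of KO (4378 bp) were shared. Per 10000 bp of window this was 579 bp in WT, higher than at 97.4% of genes, and 678 bp in KO, higher than at 96.7%. H3K27ac was listed at 11 peaks in WT (3586 bp), 9 of them shared, and at 9 in KO (3486 bp), 8 of them shared. The 2 WT-only peaks were narrow, 108 and 140 bp, as was the KO-only peak of 128 bp. At the lower-numbered end H3K27ac measured 101 bp in WT (43818781 to 43818881) and 525 bp in KO (43818756 to 43819280), while H3K4me1 measured 747 bp and 664 bp.

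H3K4me3 over Bst1 was listed in KO only, at 2 peaks of 246 bp (43808060 to 43808305) and 258 bp (43855894 to 43856151). Neither was at a gene end, and both lay on H3K4me1 and H3K27ac of both genotypes. Of the 9 KO-only H3K4me3 peaks over the 6 genes, 5 overlapped H3K4me1 of WT, close to the 51.5% of all such peaks. No H3K27me3 peak was listed over Bst1 in either genotype, and it was the only one of the 6 without it.

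Car8, an acatalytic member of the carbonic anhydrase family (chromosome 4, 8141493 to 8239041), had H3K4me1 at 9 peaks in WT (3401 bp), all shared, and at 11 in KO (6103 bp). The ratio of marked length was 1.79, against a median of 1.11 over windows with the mark in both genotypes. Of the 9 pairs, 8 were wider in KO. The largest difference was at a peak of 156 bp in WT (8186965 to 8187120) and 1037 bp in KO (8186825 to 8187861). The widest KO-only peak measured 568 bp (8219004 to 8219571), where WT had H3K27ac (355 bp) and KO had none.

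H3K27ac over Car8 was listed at 18 peaks in WT (4815 bp) and 8 in KO (2953 bp), with 5 in each shared. All 5 shared places carried H3K4me1 in both genotypes, among them the widest, 876 bp in WT (8199854 to 8200729) and 684 bp in KO (8199992 to 8200675). None of the 13 WT-only H3K27ac peaks overlapped WT H3K4me1, against 10.5% of all WT-only H3K27ac peaks. They were 98 to 395 bp wide. At the higher-numbered end, H3K4me1 (143 bp) and H3K4me3 (388 bp, 8238777 to 8239164) were listed in KO only and H3K27ac (286 bp) in WT only, while H3K27me3 measured 311 bp in WT and 674 bp in KO. The other H3K4me3 peaks at Car8 were 1 of 318 bp in WT only (8216676 to 8216993) and 1 of 171 bp in KO only (8232507 to 8232677), the latter on H3K4me1 and H3K27ac of both genotypes. The 3 other H3K27me3 peaks of KO were 195 to 444 bp wide, and the peak of 1014 bp in WT (8199795 to 8200808) met 1 of 195 bp in KO. The marked length of H3K27me3 was 2286 bp in WT and 1596 bp in KO, the reverse of the order at the other 4 genes with that mark.

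**Figure D3:**
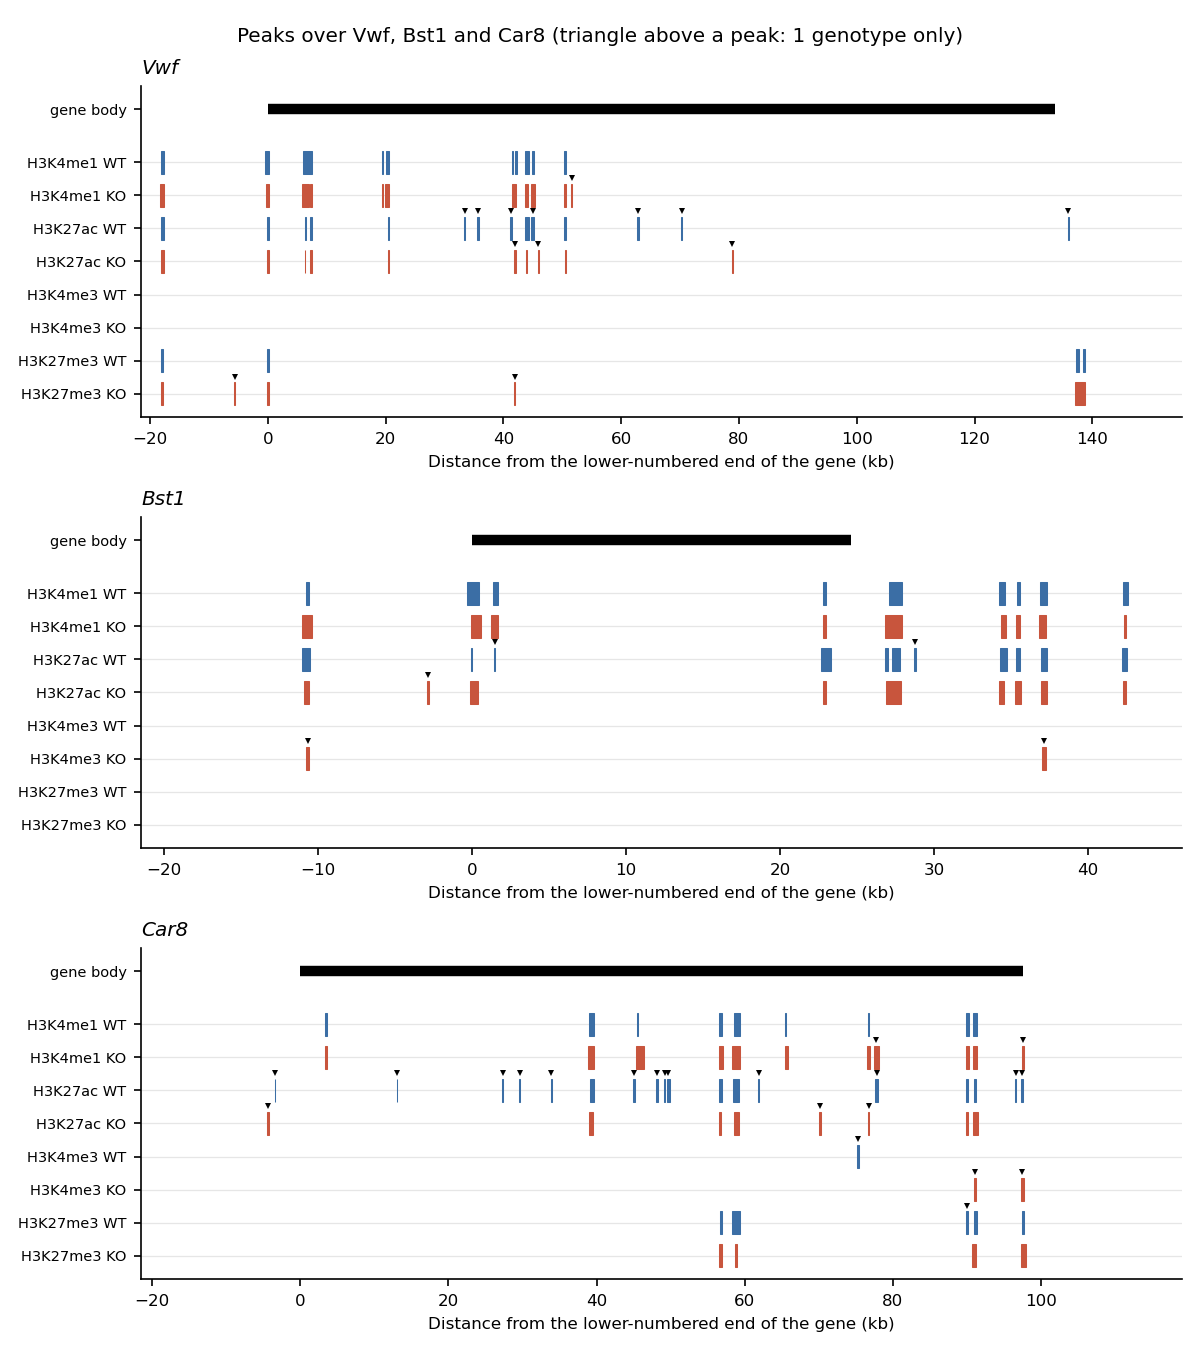
Maps of the peaks over Vwf, Bst1 and Car8, with the distance from the lower-numbered end of each gene (kb) on the horizontal axis and 1 row for each list (WT blue, KO red). A triangle marks a peak of 1 genotype only and the black bar is the gene. The H3K4me1 rows of the 3 genes carry 3 triangles, 2 at Car8 and 1 at Vwf, whereas 13 of 18 WT H3K27ac peaks at Car8 carry one.

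Slc6a2 encodes the noradrenaline transporter, which lung endothelium is known to use to clear noradrenaline from blood (chromosome 8, 92960470 to 93001667). H3K27me3 near its lower-numbered end was listed as 1 peak of 1554 bp in WT (92961708 to 92963261) and 1 of 3117 bp in KO (92959860 to 92962976). The KO peak reached across the gene end and the WT peak began 1238 bp inside it. KO had another 2 peaks of 191 and 129 bp. H3K27ac was listed at 6 peaks in WT (820 bp) and 0 in KO. Of 4518 windows with at least 6 WT peaks, 0.819% had 0 in KO, a limit set after Slc6a2 was seen. The 6 peaks were 102 to 194 bp wide, below the median of 215 bp for the WT list, and when the longer list was cut to its widest peaks, as many as the shorter list holds, neither genotype had any. One of them (92960195 to 92960388) lay at the lower-numbered end and was covered by the H3K27me3 peak of KO. The only H3K4me1 peak, 573 bp from 92950646 to 92951218, was in WT only, and no H3K4me3 was listed.

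Ackr1 encodes the atypical chemokine receptor of venules, which binds chemokines without signalling through G proteins (chromosome 1, 173331886 to 173333503). Over its 41618 bp window the 8 lists held 4 peaks. H3K27ac was listed at 293 bp in WT (173336073 to 173336365) and at another place, 265 bp, in KO (173346177 to 173346441). H3K27me3 was listed in KO only, at 239 and 376 bp. All 4 lay inside the neighbouring gene Cadm3, which overlaps Ackr1, the last also inside Aim2, and none lay within 1000 bp of an end of Ackr1. No H3K4me1 peak was listed, as at 28.3% of genes in WT and 32.4% in KO, and no H3K4me3 peak, as at 28.7% of genes in KO.

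**Figure D4:**
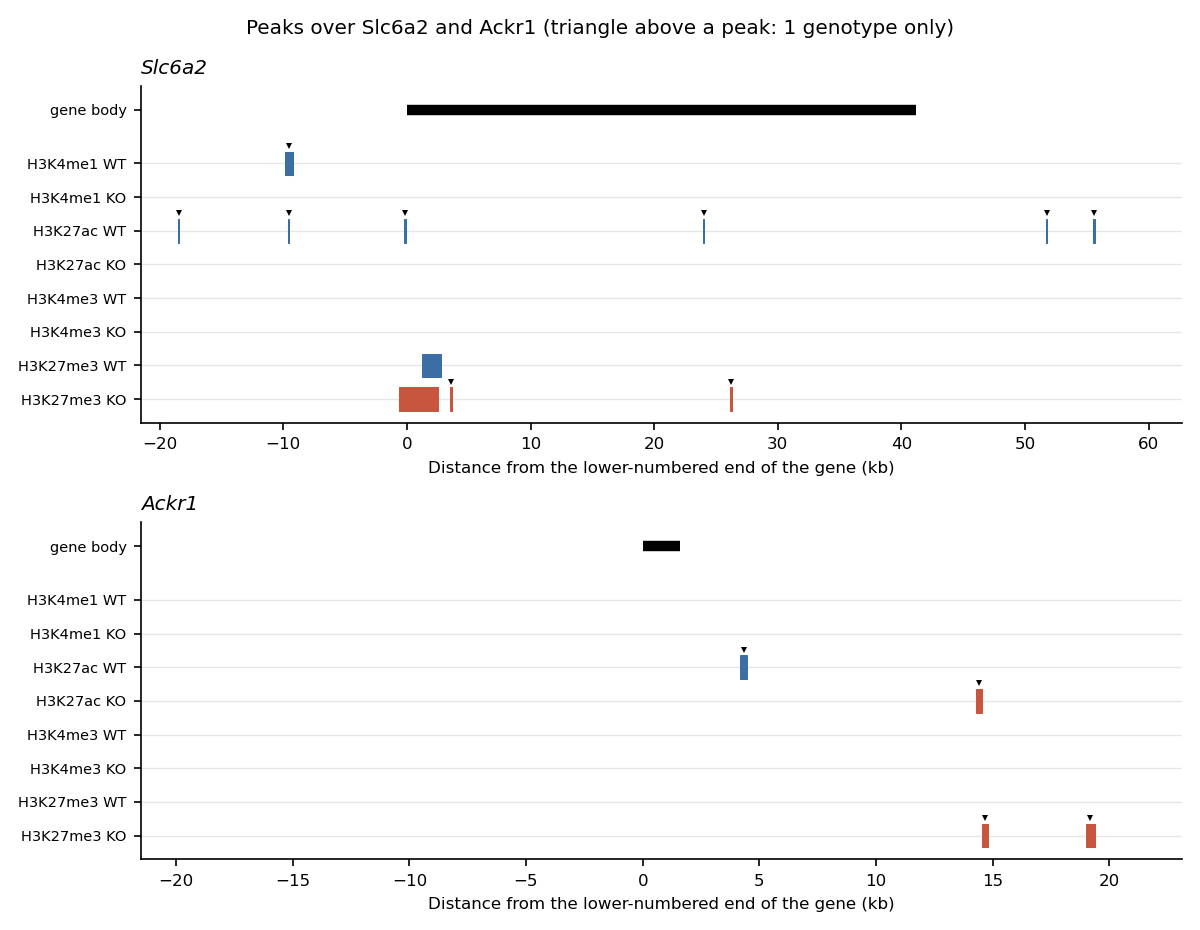
Maps of the peaks over Slc6a2 and Ackr1, drawn as in the other maps, with the distance from the lower-numbered end of the gene (kb) on the horizontal axis. The H3K27ac row of WT at Slc6a2 holds 6 narrow peaks and that of KO none, and the H3K27me3 peak near the gene end is 3117 bp wide in KO against 1554 bp in WT.

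Sharing between genotypes was then set beside that of the whole lists. Of the H3K4me1 peaks over the 6 genes, 91.2% in WT (31 of 34, interval 76.3 to 98.1) and 91.7% in KO (33 of 36, 77.5 to 98.2) were shared, against 76.5% and 75.7% of all peaks. H3K27ac was shared at 37.9% in WT (22 of 58, 25.5 to 51.6) and 72.4% in KO (21 of 29, 52.8 to 87.3), against 37.0% and 67.5%. H3K4me3 was shared at 60.0% in WT (3 of 5, 14.7 to 94.7) and 25% in KO (3 of 12, 5.49 to 57.2), against 82.0% and 51.6%. H3K27me3 was shared at 93.8% in WT (15 of 16, 69.8 to 99.8) and 50.0% in KO (14 of 28, 30.6 to 69.4), against 75.1% and 48.6%. The 1 WT-only H3K27me3 peak, at Car8, compares with 24.9% of the list. In 7 of the 8 lists the share of the whole list lay inside the interval of the 6 genes, the exception being H3K4me1 of KO. That exception was lost with 5000 bp on each side of the genes (interval 69.8 to 97.6), with 50000 bp (74.8 to 95.3) and without Nr2f2 (74.2 to 98.0). The interval of H3K4me1 of WT no longer held the share of its whole list with 5000 bp on each side (78.9 to 99.9) or without Nr2f2 (82.2 to 99.9). Peaks near each other are not independent, so these intervals may be too narrow.

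**Figure D5:**
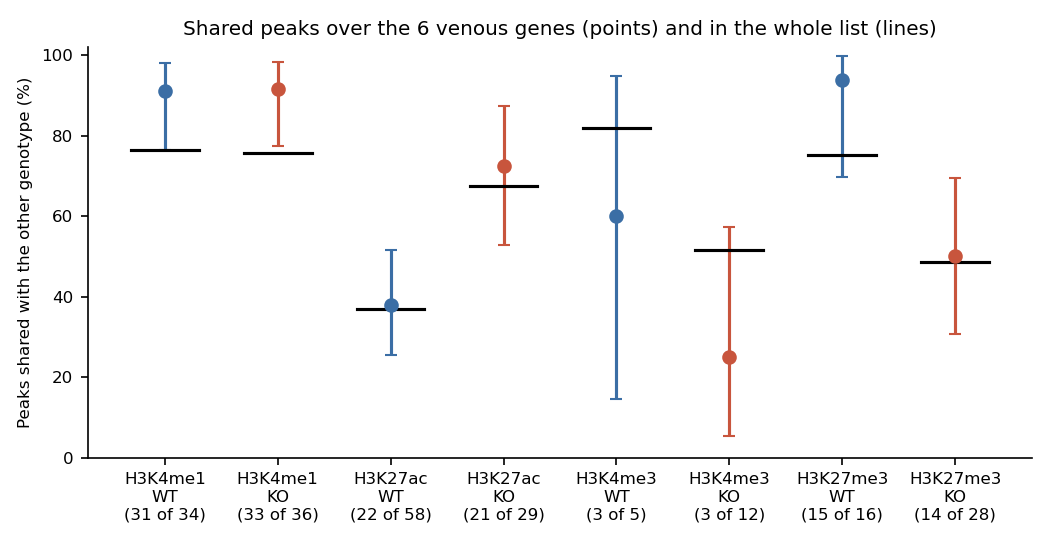
Share of peaks (%) with an overlapping partner in the list of the opposite genotype, for the 6 genes (points, with exact 95% intervals for counting error) and for the whole list (black lines), by mark and genotype. H3K4me1 is shared at 91.2% in WT and 91.7% in KO, and H3K27ac of WT at 37.9% against 37.0% in the whole list.

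Widths were compared in pairs in which neither peak overlapped any further peak of the opposite genotype. The median ratio of KO to WT width was 1.26 for H3K4me1 (27 pairs), 1.72 for H3K27me3 (13 pairs), 1.00 for H3K4me3 (3 pairs, all at Nr2f2) and 0.872 for H3K27ac (20 pairs). Over all such pairs of the lists the medians were 1.13, 1.23, 1.18 and 0.953. Of the 13 H3K27me3 pairs 6 were at Nr2f2, and the 7 pairs at the other genes had a median of 1.10, below that of all pairs. The H3K27me3 pairs ranged from 0.192 at Car8 to 4.87 at Nr2f2, and 11 of 13 were wider in KO against 70.4% of all pairs. H3K4me1 pairs ranged from 0.376 at Bst1 to 6.65 at Car8, and 18 of 27 were wider in KO against 64% of all pairs.

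Peaks of the 8 lists that overlapped were merged into 85 elements, of which 43 held a single list and 22 of those were WT H3K27ac alone. Elements with both H3K4me1 and H3K27ac, a pair found at active enhancers, numbered 26 in WT and 22 in KO, with 21 in both. The 5 that held the pair in WT only were 2 at Nr2f2 and 1 each at Slc6a2, Vwf and Bst1. Of 30491 such WT elements over chromosomes 1 to 19, 23.2% did not hold both marks in KO. At Car8, Vwf and Bst1 together 20 of 22 had the pair in KO too, and at Nr2f2 and Slc6a2 1 of 4, a grouping made after the values were seen. The 1 element with the pair in KO only lay at Car8, on a H3K4me1 peak of both genotypes (8218147 to 8218277 for the H3K27ac peak). Because merging ran across the lists, the peaks of a pair need not overlap within 1 genotype. In the Vwf element from 125594151 to 125595184, the WT H3K27ac peak overlapped no WT H3K4me1 peak. Some elements with the pair also held H3K27me3, among them the 2 at Nr2f2 with the pair in WT only.

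At the gene ends H3K27ac was in WT only at Nr2f2, Slc6a2 and Car8, 3 of the 5 genes with it, where 11.0% of genes with the mark showed this. H3K27me3 was in KO only at Nr2f2 and Slc6a2, 2 of 4, against 17.9%. At both, the KO peak at the end overlapped a WT peak that began beyond the 1000 bp limit. That WT peak began 1238 bp inside the end at Slc6a2 and at 70368777, outside the end, at Nr2f2. H3K4me3 was in KO only at Car8, against 13.0% of genes, and in both at Nr2f2, and H3K4me1 was in KO only at Car8, against 4.81%. The H3K27ac and H3K4me3 peaks behind the calls at Nr2f2 lay at its lower-numbered end. Nr2f2 is on the minus strand, so that end is opposite the promoter shown above. Another 12 genes of venous or venular endothelium were looked at in the same way. H3K27ac was in both genotypes at 7, in WT only at Nr2f1, a nuclear receptor related to Nr2f2, and in KO only at Prss23, a secreted protease (3.76% of genes). That call for Prss23 is for the ends of its longest annotated span, since 6 of its 7 promoters in the RefSeq table were touched by H3K27ac of both genotypes and 3 by H3K4me3 of both. H3K4me3 was in both at 7 and in KO only at Icam1. Il1r1 had no H3K4me3 at its ends, but a RefSeq promoter of it (40266336 to 40266635) was touched by H3K4me3 of both genotypes. H3K27me3 was in both at 3, in KO only at Icam1 and in WT only at Ephb4, the receptor of the arterial ligand ephrin-B2, and Aplnr, the apelin receptor, against 7.42% of genes. H3K4me1 was in both at 6 and in WT only at Nrp2, Cpe and Amigo2, against 19.5% of genes. Selp, the adhesion molecule P-selectin, had no mark at its ends in either genotype, as Ackr1.

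Arterial genes were looked at as the counterpart of the venous ones. All 11 that were found, of 12 listed, had H3K4me1 and H3K27ac at an end in both genotypes, and 10 had H3K4me3 in both, with Gja5, an arterial connexin, in WT only (1.29% of genes). H3K27me3 was in both at 6 and in KO only at Notch1 and Notch4, receptors of arterial fate. Of the 6 venous genes, 2 had H3K27ac in both and 1 had H3K4me3 in both. The difference between these lists was not tested.

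The genes whose 8 values of marked length were most like each venous gene were found by Euclidean distance of log2(1 + bp per 10000 bp of window) over the 8 lists. For Nr2f2 these were Fbxl8 (distance 1.70) and Pom121l2 (1.71), for Slc6a2 Magel2 (1.20) and Sdsl (1.42), and for Ackr1 Fndc9 (0.686) and Ucn3 (1.26). For Vwf they were Tbx19 (0.757) and Fgf6 (0.826), for Bst1 Fam167b (0.250) and Plscr2 (0.349), and for Car8 Palld (1.39) and Sipa1l3 (1.47). The nearest pair of venous genes, Car8 and Vwf, was 7.22 apart. On this log scale a list with 0 bp at 1 gene only weighs heavily. Most of the distance between Car8 and Vwf came from H3K4me3. Per 10000 bp it was 23.1 bp in WT and 40.6 bp in KO at Car8, and 0 in both at Vwf.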

How the data were processed

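The values analysed were peak positions and widths in bp, in 8 lists deposited by the authors, 1 for each mark and genotype, used without rescaling. Per the submitters' processing notes, the builds were mm10 and R64. The same notes name the aligner Bowtie2 2.2.6, the trimmers cutadapt 1.14 and Trim Galore 0.4.4, the peak caller MACS2 2.1.2.1, and SAMtools and deepTools 3.1.1. The sources used here do not state the peak threshold or mode, or whether a group's 3 samples were merged before calling.

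A peak counted for a gene if it touched the gene body or 20000 bp on either side, at full width, and was shared if at least 1 bp lay in a peak that the opposite genotype had for that mark. Gene ends were the annotated ends of GRCm38.p6 with 1000 bp on each side, and the gene table has no strand. Calls at an end therefore do not separate the start of a gene from its far end. Exons and introns were not separated. Alternatives changed the window, the overlap, the width minimum, the length of the lists and the treatment of neighbouring genes, and sums without Nr2f2 were added after the data were seen. Python 3.11.15, numpy 2.4.6, pandas 2.3.3, scipy 1.17.1 and matplotlib 3.10.9 were used. For each mark, 3000 peaks drawn from the WT list were set against shifted copies of themselves, part of them moved to a dummy chromosome. The overlap code gave 0 differences from an exhaustive search.

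The 6 genes and the other lists were chosen with earlier results of these data known. Named were the 6 genes, list genes whose mark at an end was in 1 genotype only, neighbours with a peak within 1000 bp of an end, the widest genotype-only peaks of each gene and mark, and for each gene the 2 most alike genes. The promoters of Nr2f1, Icam1 and Emcn, and Il1r1, Selp, Cadm3 and Aim2, were named after their values were seen. So were the marker genes of the sort check and the other single peaks. Bmx lies outside chromosomes 1 to 19 and was not analysed here. The limits set after seeing Nr2f2, Slc6a2 and Vwf, and the grouping of genes for elements, are descriptions only.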

Additional observations from a re-analysis of the deposited data

How the results depend on the processing

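No paired analysis was possible because each group was given as 1 list, and leaving out a replicate was not possible for the same reason. Of 92 values over the 6 genes under another setting, 80 stayed within 1.5 times the ratio or inside the interval of the share, 11 moved further and 1 turned. Several of these intervals were wide, such as 14.7 to 94.7 for H3K4me3 of WT (3 of 5 peaks). Staying inside them says little about stability. With 50000 bp on each side the H3K4me1 ratio of 1.06 turned to 0.960. With the longer list cut to the widest peaks, as many as in the shorter, the H3K27ac ratio of 0.500 was 0.784 and the H3K27me3 ratio of 1.75 was 1.13. With peaks of at least 500 bp the H3K27ac ratio was 0.833, the KO share of H3K27ac was 40.0% (2 of 5), the WT share of H3K4me3 was 100% (2 of 2), and the shares of H3K4me1 were 54.5% in WT and 40.0% in KO. With peaks of at least 200 bp the KO share of H3K4me1 was 77.4%. Without Nr2f2, an alternative chosen after seeing the data, the H3K4me3 ratio of 2.40 was 4.00, and 0% of the H3K4me3 peaks were shared in WT (0 of 1) and 0% in KO (0 of 4). A width minimum removes the narrower partner of a pair, which by construction makes the wider one unshared. The cause of the other differences was not tested.

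Of 144 values of single genes, as KO minus WT marked length, 101 stayed within 1.5 times, 34 moved and 9 turned. H3K4me1 at Nr2f2, 203 bp, was -380 bp with 5000 bp on each side, -487 bp with 50000 bp and -296 bp with peaks of at least 500 bp. H3K27ac at Bst1, -100 bp, was 129 bp with 5000 bp on each side, 128 bp with peaks of at least 200 bp, 357 bp with 500 bp and 431 bp with lists of equal number. H3K27ac at Car8, -1862 bp, was 945 bp with peaks of at least 500 bp, and at Ackr1, -28 bp, it was 20 bp with 50000 bp on each side. At Nr2f2, H3K27me3 was longer in KO under each of the 6 other settings, between 5213 and 10043 bp in place of 9473 bp. H3K27ac there was longer in WT under each, between -2702 and -577 bp in place of -2308 bp. The value of -577 bp came with peaks of at least 500 bp. That minimum dropped the KO peak of 485 bp and kept its WT partner of 577 bp, so it says nothing about a loss. H3K27ac at Slc6a2 was at 0 in both genotypes with lists of equal number and with peaks of at least 200 bp. The lists give no depth, so whether a peak missing from 1 list was below detection was not tested.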
